A study of Mus musculus with 2 samples.

Results

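The genes described here are 34 members of the unfolded protein response of the endoplasmic reticulum (ER) and of the integrated stress response. They were taken by symbol from the 32285 genes of the deposited count tables, and all 34 were found. They comprise 11 ER chaperones and folding enzymes, 5 genes of ER-associated degradation (ERAD), 5 stress sensors and transcription factors, and 13 Atf4 targets and stress effectors. They were measured by droplet single-cell RNA sequencing in CD45+ leukocytes sorted from tumours that B16F10-OVA cells, a mouse melanoma line that by its name carries the model antigen ovalbumin, had formed under the skin of mice. Every mouse received the same tumour cells, and the 2 groups differed in what was injected on days 10, 12, 14 and 16, which was PBS in the control group and UDSP-Hep in the other. Tumours were taken on day 19, and cells of 3 tumours per group went into a single library. There is therefore 1 library per group and no replicate, no test between groups was possible, and every interval given here covers counting error only. The labels used here give no strain, age or composition of UDSP-Hep.

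When unfolded proteins build up in the ER, the membrane sensors Ern1 (IRE1), Eif2ak3 (PERK) and Atf6 start separate branches of a shared programme. The Xbp1 and Atf6 branches raise chaperones, folding enzymes and ERAD genes, and PERK slows translation by phosphorylating eIF2alpha, which favours translation of Atf4. Kinases that sense other stresses, such as a lack of amino acids, act on the same eIF2alpha site, so Atf4 targets of amino-acid transport and of serine and one-carbon metabolism can move without the chaperones. In leukocytes the programme is best known from cells that secrete much protein, such as plasma cells, and from plasmacytoid dendritic cells (pDC) and tumour phagocytes. A count per gene does not tell the spliced from the unspliced Xbp1 transcript, so it does not read IRE1 activity.

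Sequencing gave 74685827 UMIs (unique molecules counted) over 7379 barcodes in PBS and 64241224 over 7872 in UDSP-Hep, and the median barcode had 7890 and 5641 UMIs. The libraries shared 25 barcodes. After filtering, 6717 and 7194 cells remained, and a UMI of Ptprc, which encodes CD45, was found in 92.3% and 94.6% of them. Cells were put into leukocyte classes by the number of marker genes detected, which placed 5627 and 5610 cells. The gate thresholds were set after seeing the data. The largest classes were monocytes (2511 PBS and 1362 UDSP-Hep cells), NK cells (414 and 1330), macrophages (794 and 448) and nonclassical monocytes (318 and 554). The last class sits close to its gate, since 55.0% of its PBS cells and 36.8% of its UDSP-Hep cells had the minimum number of markers. Values are UMIs summed over the cells of a class and scaled to the UMI total of that class, as counts per 1000000 (CPM). Levels are reported for the 14 classes with at least 20 cells in both libraries, and libraries are compared in the 10 classes with at least 50.

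The promoter stretches below are shown because they hold the DNA elements by which the chaperone branch and the Atf4 branch are usually told apart. The RefSeq promoter table (GRCm38.p6) matched 29 of the 34 members. Slc7a5, Derl1, Atf6, Manf and Hyou1 had no entry. The 250 bases before the start were searched on both strands for the ER stress element ERSE (CCAAT and CCACG separated by 9 bases), the related ERSE-II (ATTGG and CCACG separated by 1 base), the CARE element of Atf4 and its partners (TGATGNAA) and the unfolded protein response element UPRE (TGACGTGG). ERSE was found in 7 members, of which 6 were chaperones (Hspa5, Hsp90b1, Pdia6, Dnajc3, Creld2 and Canx) and 1 was the ERAD ligase gene Syvn1. It was found in 0.113% of all 32851 promoters of the same length. ERSE-II was found in Herpud1 and in 0.0304% of all promoters. CARE was found in Chac1, Asns, Nupr1 and Herpud1, and in 3.45% of all promoters. UPRE was found in no member and in 0.563% of all promoters. These are matches of letters, not measured binding sites. Each stretch below is given 5′ to 3′ on the gene's strand, with the element and up to 20 bases on either side, and capitals mark the element. Hsp90b1 holds a pair of ERSE copies in opposite orientations.
Hspa5, chr2:34772005-34772063, plus strand: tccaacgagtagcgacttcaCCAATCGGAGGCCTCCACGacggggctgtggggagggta
Hsp90b1, chr10:86705513-86705676, minus strand: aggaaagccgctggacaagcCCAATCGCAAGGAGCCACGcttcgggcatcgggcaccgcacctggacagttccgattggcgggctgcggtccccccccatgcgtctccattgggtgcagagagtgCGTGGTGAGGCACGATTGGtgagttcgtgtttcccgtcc
Pdia6, chr12:17266471-17266529, plus strand: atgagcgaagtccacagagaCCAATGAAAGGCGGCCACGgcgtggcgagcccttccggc
Dnajc3, chr14:118937807-118937865, plus strand: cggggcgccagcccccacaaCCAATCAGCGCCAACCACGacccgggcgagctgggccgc
Creld2, chr15:88819500-88819558, plus strand: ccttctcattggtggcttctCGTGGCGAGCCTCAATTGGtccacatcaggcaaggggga
Canx, chr11:50325780-50325838, minus strand: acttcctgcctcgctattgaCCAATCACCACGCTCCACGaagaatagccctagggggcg
Syvn1, chr19:6046512-6046570, plus strand: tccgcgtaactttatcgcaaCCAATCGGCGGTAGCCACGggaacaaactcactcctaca
Herpud1 with ERSE-II, chr8:94386357-94386407, plus strand: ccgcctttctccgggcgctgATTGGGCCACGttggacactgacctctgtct
Chac1 with CARE, chr2:119351029-119351076, plus strand: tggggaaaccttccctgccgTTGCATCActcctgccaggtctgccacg
Asns with CARE, chr6:7693210-7693252, minus strand: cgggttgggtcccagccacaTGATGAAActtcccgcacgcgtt
Nupr1 with CARE, chr7:126625553-126625600, minus strand: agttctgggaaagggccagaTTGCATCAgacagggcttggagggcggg

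Among the 14 classes, all chaperones but Dnajb9 and Sdf2l1 were highest in pDC or macrophages in both libraries. Of the 34 members, 27 had the same highest class in PBS and UDSP-Hep. pDC were highest in both libraries for 8 members, namely the chaperones and cofactors Hsp90b1, Dnajc3, Creld2, Manf and Hyou1, the ERAD genes Herpud1 and Derl1, and the factor Xbp1. For Creld2 and Derl1 the interval overlapped that of the next class in both libraries. Hsp90b1, the HSP90 of the ER, stood at 1396.9 CPM (95% Poisson interval 1316.4 to 1481.0) in PBS pDC and 1476.5 (1339.0 to 1624.3) in UDSP-Hep pDC, against 1029.4 and 986.2 CPM in macrophages, the next class in both. Xbp1 stood at 773.0 CPM (713.5 to 836.2) and 1000.7 (888.0 to 1123.6) in pDC. The next class for Xbp1 differed, being neutrophils at 621.0 CPM in PBS, where the intervals overlapped, and nonclassical monocytes at 495.7 CPM in UDSP-Hep. Herpud1, an ER membrane protein that helps recruit ERAD factors, was at 426.3 and 783.7 CPM in pDC and next highest in mature dendritic cells (DC) at 274.9 and 376.2 CPM. The pDC values rest on 80 PBS and 29 UDSP-Hep cells, too few in the second library for a comparison of libraries.

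Macrophages were highest in both libraries for the disulfide isomerases Pdia4 and Pdia6 and for the lectin chaperone Canx. Pdia6 stood there at 468.9 and 401.9 CPM, and Canx at 540.5 and 522.9 CPM with pDC next at 481.0 and 489.8. In UDSP-Hep the macrophage interval overlapped that of pDC for Pdia4, Pdia6 and Canx, and in PBS for Canx. Pdia4 was at 255.0 CPM in UDSP-Hep macrophages and 241.4 CPM in UDSP-Hep pDC. Hspa5 (BiP), the main ER chaperone and the repressor of the sensors, was highest in PBS macrophages at 779.3 CPM (762.0 to 796.9). In UDSP-Hep it was highest in pDC at 794.2 CPM (694.3 to 904.6), an interval that overlaps that of macrophages at 725.2 (703.6 to 747.4). Dnajb9, an Hspa5 cochaperone, was highest in neutrophils in PBS at 164.4 CPM and in pDC in UDSP-Hep at 192.4 CPM, with intervals that overlapped the next class. In macrophages it stood at 58.6 and 59.1 CPM, under the median class at 64.5 and 64.6, and Dnajc3 likewise stood at 86.9 and 94.2 CPM there, under 91.8 and 96.9. Sdf2l1, a cofactor of Hspa5, and Edem1, which marks misfolded glycoproteins for ERAD, were highest of the 14 classes in type 2 conventional DC (cDC2). Sdf2l1 stood there at 158.6 and 146.9 CPM and Edem1 at 313.2 and 383.9 CPM. In UDSP-Hep the Sdf2l1 interval overlapped that of macrophages, at 144.0 CPM. Type 1 conventional DC (cDC1) are not among the 14 classes, with 76 PBS but 17 UDSP-Hep cells. In PBS cDC1 Sdf2l1 was higher than in cDC2, at 231.1 CPM (209.4 to 254.4). Creld2 was at 101.9 CPM in PBS cDC1 and 82.0 CPM in PBS pDC, with intervals that overlapped. Sel1l, the partner of Syvn1 in the ERAD ligase, was highest in mature DC at 78.3 and 117.6 CPM, with intervals that overlapped the next class. At the other end, mature DC had the lowest Hspa5 of all 14 classes in both libraries, at 100.6 and 113.6 CPM. Plasma cells were not found by the gate in either library.

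The sensors and the factor Atf4 had other orders of classes than the chaperones. Ern1, the IRE1 sensor that splices Xbp1, was highest in NK cells at 58.6 and 77.0 CPM and lowest in mature DC at 8.82 and 9.8 CPM, with CD8 T cells also low at 9.22 and 11.0 CPM. The Ern1 interval of NK cells overlapped that of pDC, the next class, in both libraries. Eif2ak3 was highest in B cells at 64.1 and 55.0 CPM, on 7 and 11 UMIs, and had 0 of 508881 UMIs in PBS basophils, a total in which 3 counts, the limit a count of 0 allows, make 5.90 CPM. Atf6 was highest in nonclassical monocytes in PBS at 119.6 CPM and in pDC in UDSP-Hep at 126.0 CPM, and these 2 classes did not differ beyond their intervals in either library. Atf4 lay between 176.3 CPM in mature DC and 320.6 CPM in B cells in PBS, and between 197.9 and 380.3 CPM in the same classes in UDSP-Hep.

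The Atf4 targets split over other classes. Neutrophils were highest in both libraries for Ddit3 (CHOP, a factor linked to stress-induced death), Chac1, Sesn2, Slc3a2 and Ppp1r15a. For Chac1 and Slc3a2 the interval overlapped that of the next class in both libraries, and for Sesn2 in UDSP-Hep. Chac1 in PBS neutrophils, at 27.4 CPM, rests on 3 UMIs. Ppp1r15a, the GADD34 subunit that restores eIF2alpha to its unphosphorylated form, stood at 831.0 CPM (669.1 to 1020.3) in 42 PBS neutrophils and 1150.2 CPM (1094.5 to 1208.0) in 577 UDSP-Hep neutrophils, with basophils next at 514.9 and 562.7 CPM. Ddit3 stood at 474.9 CPM (354.6 to 622.7) and 256.2 CPM (230.3 to 284.3) in neutrophils, with macrophages next at 96.8 and 103.4 CPM. The amino-acid transporter gene Slc7a5 was highest in basophils at 121.8 CPM (93.4 to 156.2) and 209.5 CPM (156.0 to 275.4), with pDC far below at 22.4 and 45.5 CPM. Its heavy chain Slc3a2 was next highest in PBS basophils at 416.6 CPM. Mthfd2, a mitochondrial one-carbon enzyme, was highest in mature DC at 192.9 and 188.1 CPM and then in cDC2 at 178.6 and 155.0 CPM. The intervals of these classes overlapped in both libraries. The serine synthesis genes Phgdh and Psat1 were highest in T cells, in CD8 T cells in PBS and in regulatory T cells (Treg) in UDSP-Hep. Nupr1 was highest in the monocyte classes, at 122.7 and 103.8 CPM in monocytes and 119.3 and 122.6 CPM in nonclassical monocytes. It was lower in macrophages at 65.4 and 61.2 CPM and in cDC2 at 43.1 and 37.5 CPM.

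**Figure D1:**
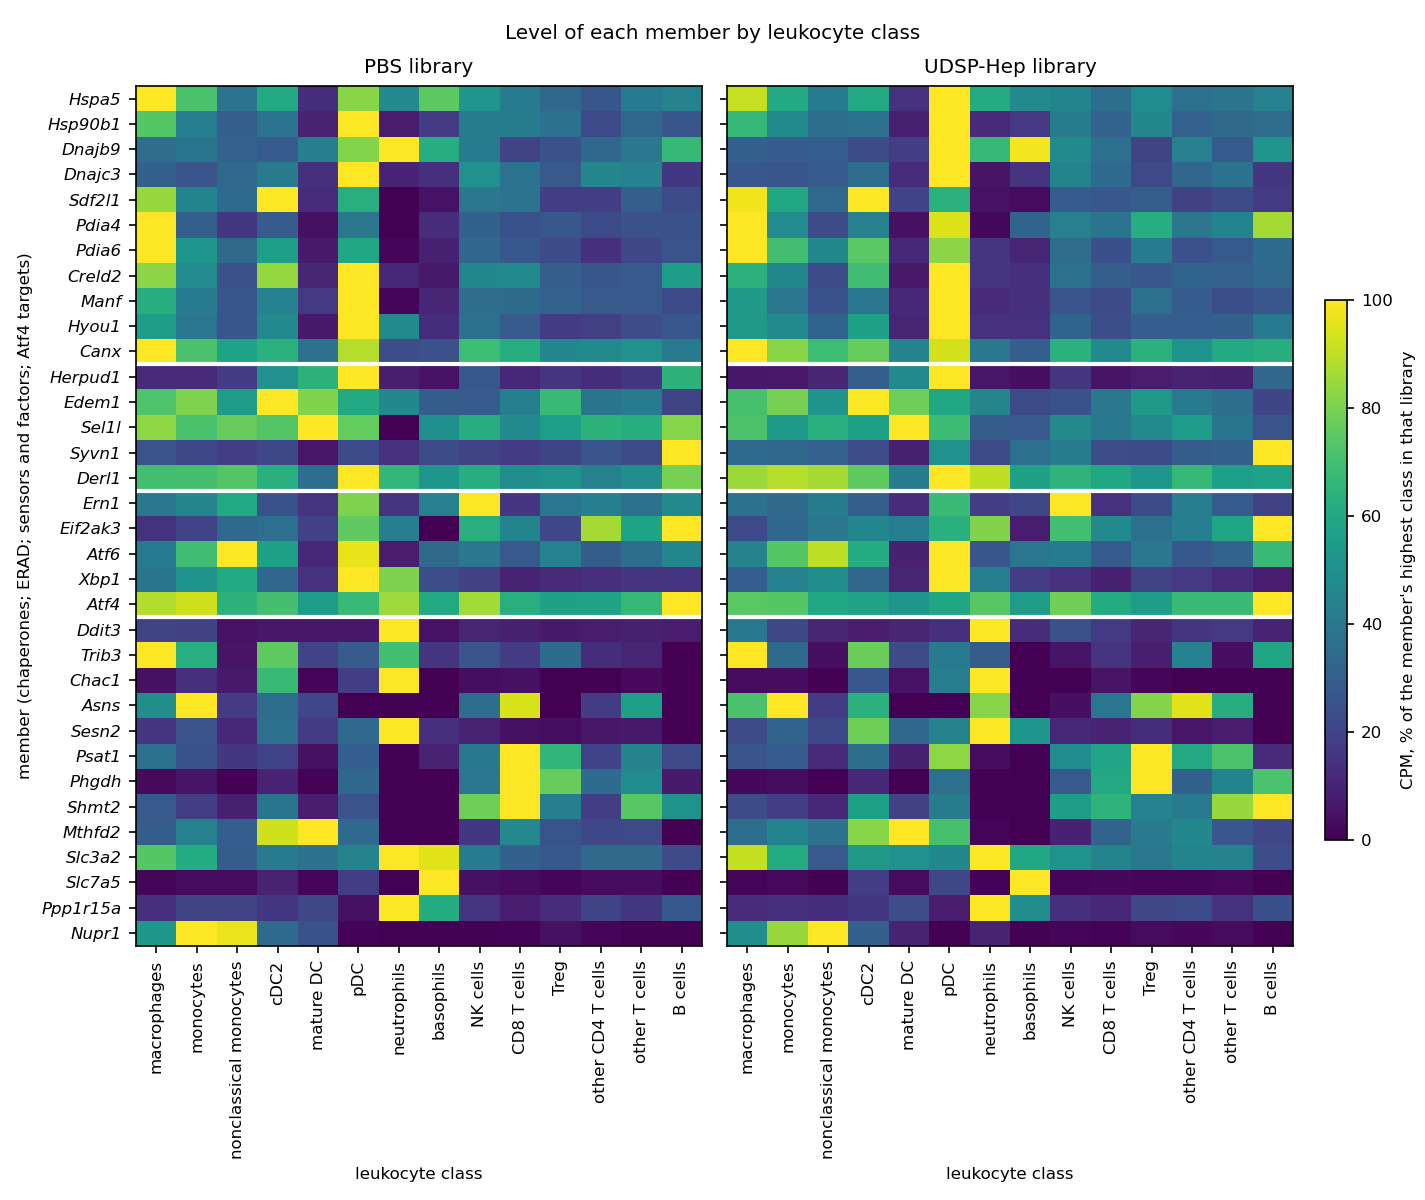
Level of each of the 34 members (rows, grouped by role with white lines between groups) in 14 leukocyte classes (columns) of the PBS and UDSP-Hep libraries, as CPM in percent of that member's highest class in the same library. Most chaperone rows are bright in pDC and macrophages, though Dnajb9 and Dnajc3 are dim in macrophages, the neutrophil column is bright for Ddit3 and Ppp1r15a, and Slc7a5 is bright in basophils alone, in both libraries.

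Between the libraries, a member was called when its CPM ratio of UDSP-Hep over PBS was at least 1.5, or at most its inverse, with a 95% interval that excluded 1 and at least 20 UMIs over both libraries. By this rule 20 of the 34 members were called in at least 1 class and 14 in none, where 48.5% of all 12523 genes tested in any class were called in at least 1. Of the 18 members tested in all 10 classes 9 were called, beside 41.9% of all such genes. There were 43 calls of a member in a class, of which 23 were higher and 20 lower in UDSP-Hep. They made up 14.5% of the 297 tested pairs of a member and a class, beside 11.4% of all pairs of a gene and a class (6.77% higher, 4.64% lower). The 11 chaperones had 11 calls higher and 4 lower in 107 pairs, and the 5 ERAD genes had 0 in 49. The 5 sensors and factors had 2 higher and 1 lower in 48 pairs, and the 13 Atf4 targets had 10 higher and 15 lower in 93. In macrophages 2 of 34 tested members were called, both lower, where 13.2% of all genes tested there were called in either direction, 8.22% higher and 4.98% lower. In monocytes 6 of 34 were called (2 higher, 4 lower), against 11.4% of all genes, 7.6% higher and 3.82% lower. In nonclassical monocytes 2 of 29 were called (1 higher, 1 lower), against 9.48%, of which 6.2% higher and 3.28% lower. In NK cells 3 of 30 were called, all lower, against 7.58%, with 4.33% higher and 3.25% lower. The members' count was below the background in macrophages, above it in monocytes and within 1 gene of it in nonclassical monocytes and NK cells.

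In CD8 T cells 9 of 31 tested members were called (2 higher, 7 lower), where 23.0% of all genes were called, 12.8% higher and 10.2% lower. In Treg 5 of 29 were called, all higher, against 8.94% in either direction, 4.89% higher and 4.04% lower. In other CD4 T cells 7 of 28 were called (6 higher, 1 lower), against 8.66%, with 5.39% higher and 3.27% lower. In other T cells 1 of 29 was called, higher, against 7.77%, with 4.2% higher and 3.56% lower. In cDC2 3 of 33 were called, all higher, against 10.9%, with 6.2% higher and 4.67% lower. In basophils 5 of 20 were called (3 higher, 2 lower), against 11.3%, with 6.31% higher and 4.97% lower. The median log2 ratio of the tested members was 0.39 in other CD4 T cells and 0.24 in Treg, beside 0.05 and 0.02 over all genes tested there. In the other 8 classes it lay between -0.06 and 0.15, with all genes between 0.02 and 0.13.

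**Figure D2:**
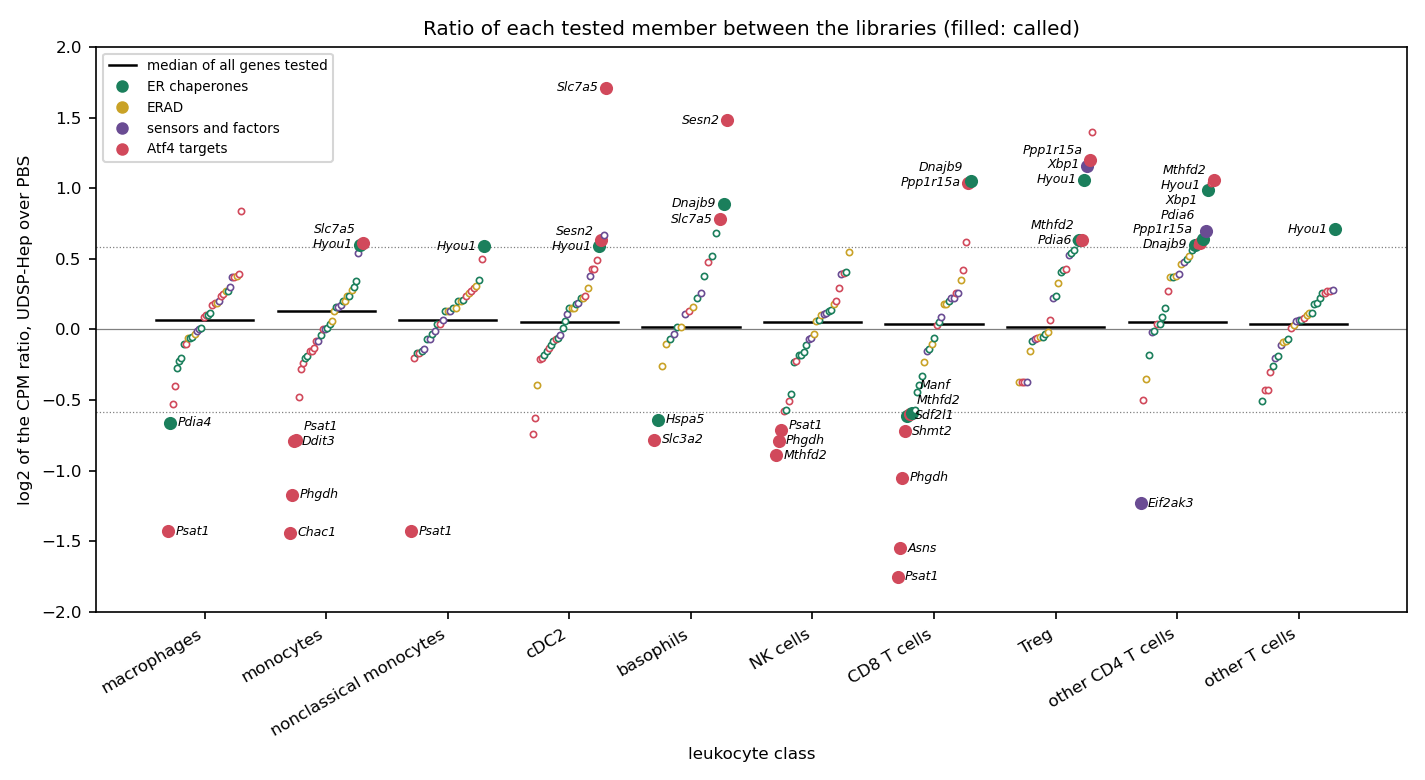
Log2 of the CPM ratio of UDSP-Hep over PBS for each tested member in 10 classes, in rising order within a class and coloured by role. Filled and named points were called, dotted lines mark the fold of 1.5 in either direction, and black bars give the median of all genes tested. Called Atf4 targets lie mostly below 0 in phagocytes, NK and CD8 T cells, and the called members of Treg all lie above 0.

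Among the chaperones, Hyou1, an ER nucleotide exchange chaperone of the HSP110 family, was called most often and always higher in UDSP-Hep. It was called in 6 of the 9 classes where it was tested, and its ratio was above 1 in all 9. Monocytes stood at 52.9 CPM in PBS and 80.0 CPM in UDSP-Hep, a ratio of 1.51 (1.39 to 1.65). Nonclassical monocytes stood at 36.0 and 54.1 CPM, a ratio of 1.51 (1.19 to 1.91). These 2 and cDC2 (64.1 and 96.2 CPM, ratio 1.5) sit at the edge of the fold. The median log2 ratio of all genes in monocytes was 0.13, and with scaling that sets it to 0 the log2 ratio of Hyou1 there went from 0.60 to 0.47, short of a call. Treg were at 24.0 and 50.1 CPM (2.09, 1.31 to 3.41), other CD4 T cells had 15 and 53 UMIs of it (1.98, 1.10 to 3.79) and other T cells were at 31.8 and 52.1 CPM (1.64, 1.12 to 2.42). The Hyou1 call held under 12 of 13 other settings in other CD4 T cells, 11 in Treg, 9 in other T cells, 7 in nonclassical monocytes and 6 in monocytes, and under 4 of 12 in cDC2. Without cells that have at least 2 UMIs of 15 proliferation genes the ratio was short of a call in Treg (1.55, 0.847 to 2.97), nonclassical monocytes (1.48), other T cells (1.44) and cDC2 (1.29). The ratio of Hspa5 was above 1 in 4 of 10 classes and that of Manf in 3 of 10.

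Pdia4 stood at 403.6 CPM in PBS macrophages and 255.0 CPM in UDSP-Hep macrophages, a ratio of 0.632 (0.595 to 0.671). This difference was not seen inside the Leiden clusters of the class. In cluster 7, led by Retnla, Cd163 and Ccl24, Pdia4 was at 763.6 CPM in PBS and 836.0 CPM in UDSP-Hep, and that cluster held 268 PBS but 30 UDSP-Hep macrophages. In cluster 10, led by Vcam1 and C1q genes, Pdia4 was at 236.9 and 228.9 CPM, with 255 and 219 cells. In clusters 5 and 3 the ratios were 0.831 (0.684 to 1.01) and 1.10 (0.802 to 1.53). With the clusters weighed the same the log2 ratio was 0.04 in place of -0.66. This setting and the clusters shown were chosen after seeing the data.

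In CD8 T cells the chaperone cofactors Sdf2l1 (60.4 and 39.7 CPM, ratio 0.656) and Manf (186.2 and 123.9 CPM, ratio 0.665) were lower in UDSP-Hep. Dnajb9 (ERdj4), an Hspa5 cochaperone that is a well-known Xbp1 target, was higher at 33.8 and 70.1 CPM, a ratio of 2.07 (1.66 to 2.59). Dnajb9 was also called higher in basophils (102.2 and 188.9 CPM) and in other CD4 T cells (55.5 and 84.0 CPM), where the lower bound of its ratio was 1.01. Its call in other CD4 T cells held under 7 of 13 other settings. Pdia6 was called higher in Treg (108.1 and 167.5 CPM) and in other CD4 T cells (65.6 and 102.0 CPM), at a ratio of 1.55 in both. Hspa5 was called in basophils alone, at 583.6 and 373.7 CPM. Without the cells rich in Hsp70 transcripts, defined below, basophils had Hspa5 at 452.1 and 373.7 CPM, a ratio of 0.827 (0.637 to 1.07).

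No ERAD gene was called in any class. In the 49 tested pairs of an ERAD gene and a class the ratios lay between 0.762, for Syvn1 in cDC2, and 1.47, for Syvn1 in NK cells. Among sensors, Atf6 lay between 0.928 and 1.19 in its 10 classes and Ern1 between 0.775 and 1.59 in its 9. The highest Ern1 ratio, in cDC2, passed the fold with an interval that held 1 (0.880 to 2.82). Eif2ak3 was called in other CD4 T cells, at 55.5 and 23.6 CPM (0.425, 0.242 to 0.737), on 33 and 25 UMIs. In monocytes it stood at 12.8 and 18.5 CPM, a ratio of 1.45 (1.22 to 1.73) in the opposite direction and under the fold. Atf4 transcript lay between 0.943 and 1.40 and was called nowhere. Atf4 protein is set mainly by translation, which these counts do not measure.

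Xbp1, the factor that drives chaperone and ERAD genes, was called higher in Treg and other CD4 T cells. Treg stood at 92.4 CPM in PBS and 206.9 CPM in UDSP-Hep, a ratio of 2.24 (1.78 to 2.84), on 100 and 289 UMIs. Other CD4 T cells stood at 106.0 and 171.9 CPM, a ratio of 1.62 (1.21 to 2.20). The Treg call held under all 13 other settings tried, and within cluster 15, which holds most Treg, the ratio was 2.27 (1.80 to 2.88). Treg with at least 2 UMIs of 15 proliferation genes had a ratio of 2.43 and other Treg 2.04. In CD8 T cells Xbp1 was at a ratio of 1.16 (0.977 to 1.38).

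Beside these values, neutrophil RNA was more frequent in the lymphocytes of the UDSP-Hep library. The 12 neutrophil markers summed to 35.1 CPM in PBS and 93.8 CPM in UDSP-Hep Treg, with 6 and 12 of the 12 detected, and to 16.8 and 236.1 CPM in other CD4 T cells, with 7 and 10 detected. In neutrophils of the UDSP-Hep library the same markers summed to 56356.5 CPM, Xbp1 to 433.3 CPM and Ppp1r15a to 1150.2 CPM. The 8 immediate early genes were also higher in UDSP-Hep, at 1829.8 and 3667.6 CPM in Treg, 2791.7 and 5815.5 CPM in other CD4 T cells and 1064.4 and 2418.5 CPM in CD8 T cells. Their part in the calls was not tested.

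The serine synthesis gene Psat1 was called lower in more classes than any other member. Phgdh and Psat1 encode the first steps from a glycolytic intermediate to serine, and Shmt2 and Mthfd2 carry serine carbon into mitochondrial folates. Psat1 was lower in UDSP-Hep in 5 of the 9 classes tested and its ratio was above 1 in 1. It stood at 30.3 and 11.2 CPM in macrophages (ratio 0.371, 0.280 to 0.486), at 21.0 and 12.3 CPM in monocytes (0.584, 0.483 to 0.702), and at 13.4 and 4.98 CPM in nonclassical monocytes (0.371, 0.210 to 0.639). NK cells stood at 33.5 and 20.5 CPM (0.612, 0.452 to 0.835). CD8 T cells stood at 83.0 and 24.7 CPM (0.298, 0.221 to 0.394). Treg were at 54.5 and 42.2 CPM, which was not a call.

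Phgdh was lower in 3 of 8 classes. CD8 T cells stood at 130.1 and 63.0 CPM (0.485, 0.401 to 0.582), NK cells at 51.2 and 29.6 CPM (0.578, 0.451 to 0.743), and monocytes, where it was scarce, at 7.44 and 3.31 CPM (0.444, 0.308 to 0.627). Treg stood at 99.8 and 104.5 CPM. Shmt2 was called in CD8 T cells alone, at 53.9 and 32.6 CPM. Mthfd2 did not follow a single direction. It was lower in NK cells at 31.5 and 17.0 CPM (0.540, 0.392 to 0.750) and in CD8 T cells at 90.8 and 60.0 CPM (0.661, 0.541 to 0.802). It was higher in Treg at 49.9 and 77.3 CPM (1.55, 1.11 to 2.19) and in other CD4 T cells at 42.0 and 87.8 CPM (2.09, 1.33 to 3.39). Whether these ratios differ between classes was not tested.

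**Figure D3:**
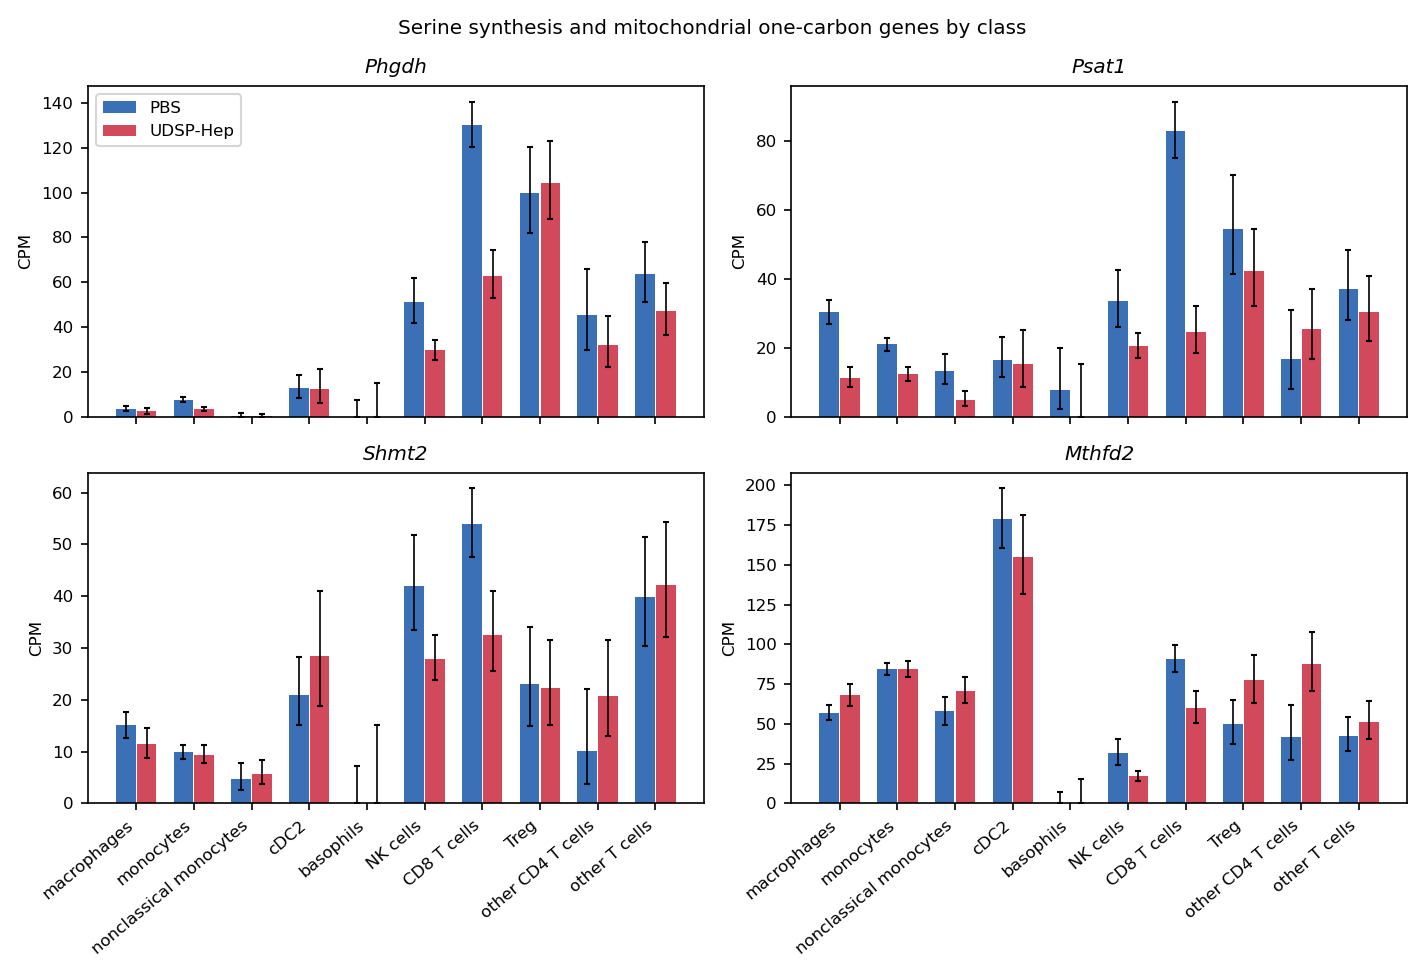
CPM of 4 serine synthesis and mitochondrial one-carbon genes in the 10 compared classes, with a bar for each library and error bars for the 95% Poisson interval (counting error only). Psat1 is lower in UDSP-Hep in the phagocytes, NK and CD8 T cells, and Mthfd2 is lower in NK and CD8 T cells but higher in Treg and other CD4 T cells.

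The Psat1 difference was also seen inside some clusters of the macrophages and monocytes, unlike that of Pdia4. In macrophages of cluster 10 Psat1 was at 37.6 and 11.3 CPM (0.301, 0.201 to 0.440), and the ratios of the other 3 clusters with at least 20 cells in each library lay between 0.498 and 0.656 with intervals that held 1. In monocytes it was called lower in cluster 2, led by Cxcl10 and Vcan, at 22.9 and 9.51 CPM, in cluster 3, led by Ly6i and Cfb, at 20.5 and 9.57 CPM, and in cluster 10. It was not lower in cluster 4, led by Camp and Hp, at 12.6 and 12.0 CPM, in cluster 5, at 12.2 and 14.5 CPM (1.19, 0.605 to 2.24), or in cluster 18, at 4.21 and 17.0 CPM on 3 and 10 UMIs. With clusters weighed the same the log2 ratio was -1.08 in macrophages and -0.64 in monocytes. In nonclassical monocytes Psat1 was not called in clusters 2, 4, 18 or 24. The ratios there were 0.197, 0.383, 1.88 and 0.578, with intervals that held 1. The call in that class was lost with Leiden clusters as classes. Among NK cells with fewer than 2 UMIs of the proliferation genes the Psat1 ratio was 0.711 (0.493 to 1.04), which was not a call. In NK cells the ratios of Psat1 in clusters 9 and 11 were 0.648 (0.440 to 0.965) and 0.638 (0.376 to 1.12), the latter not a call. Those of Phgdh were 0.636 (0.468 to 0.869) and 0.600 (0.382 to 0.965).

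**Figure D4:**
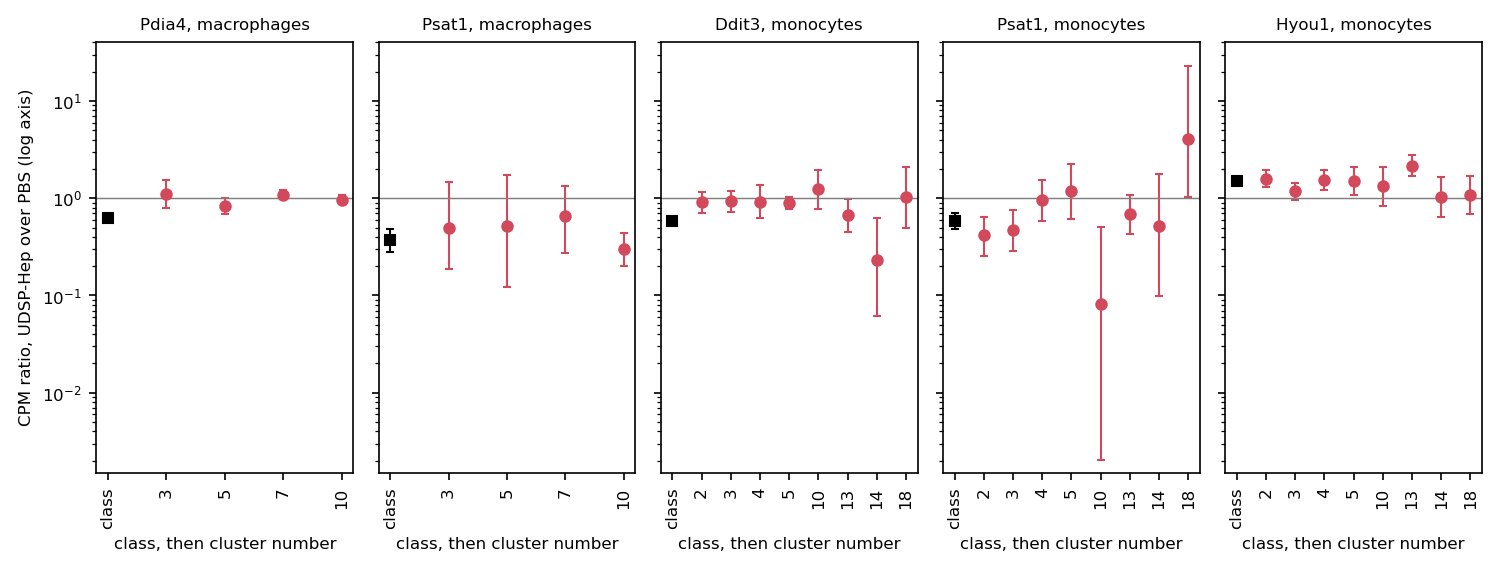
CPM ratio of UDSP-Hep over PBS (log axis) of 4 members in the whole class (black square) and in each Leiden cluster of that class with at least 20 cells in each library (red circles), with 95% counting intervals. Pdia4 in macrophages and Ddit3 in monocytes lie near 1 in most clusters though the class ratio is 0.632 and 0.58, while Psat1 lies below 1 in all 4 macrophage clusters.

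CD8 T cells differed between the libraries in clusters and in proliferation. Cluster 1, with Gzmf and Pdcd1 among its leading genes, held 298 PBS and 98 UDSP-Hep CD8 T cells. Cluster 19, with Gzmk and Tcf7 among its leading genes, held 62 and 171. Cells with at least 2 UMIs of 15 proliferation genes made up 42.5% of 452 PBS and 13.3% of 369 UDSP-Hep CD8 T cells, and those genes summed to 2006.7 and 607.9 CPM. This share depends on depth, and the median was 8122.0 UMIs in PBS and 5130.0 in UDSP-Hep. Psat1 was lower within both sets of cells, at 109.6 and 55.5 CPM in the proliferating set (0.506, 0.334 to 0.740) and at 32.6 and 15.5 CPM in the other (0.474, 0.288 to 0.765). Phgdh was at 158.1 and 120.6 CPM (0.762, 0.577 to 0.992) and at 77.1 and 45.8 CPM (0.595, 0.444 to 0.792). Dnajb9 was higher within both, at ratios of 1.97 (1.32 to 2.87) and 2.36 (1.68 to 3.35).

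Psat1 and Dnajb9 were past the fold in both sets, and Phgdh was short of it in the proliferating set. The other 6 members called in CD8 T cells were not past the fold, with an interval that excluded 1, in both sets. Mthfd2 had a ratio of 0.620 (0.429 to 0.870) in the proliferating set and 1.23 (0.902 to 1.67) in the other. Shmt2 had ratios of 0.399 (0.202 to 0.713) and 0.758 (0.535 to 1.07). Sdf2l1 had ratios of 0.891 and 1.09, and Manf 0.883 and 0.852, all with intervals that held 1. Asns, asparagine synthetase, was at 9.02 and 3.09 CPM in the whole class, and outside the proliferating set at 3.56 and 3.44 CPM on 6 UMIs in each library. Ppp1r15a stood at 65.4 and 134.5 CPM in the whole class (2.06, 1.75 to 2.41), with ratios of 1.28 (0.845 to 1.88) in the proliferating set and 1.59 (1.31 to 1.94) in the other. In clusters 0, 1 and 19 the Ppp1r15a ratios were 0.992 (0.737 to 1.34), 2.02 (1.53 to 2.65) and 1.34 (0.923 to 2.0). Its call was lost with clusters weighed the same. Psat1 ratios in these clusters were 0.540 (0.237 to 1.18), 0.408 (0.275 to 0.586) and 0.407 (0.146 to 1.11). Those of Phgdh were 0.681 (0.427 to 1.08), 0.619 (0.478 to 0.792) and 0.436 (0.247 to 0.767).

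**Figure D5:**
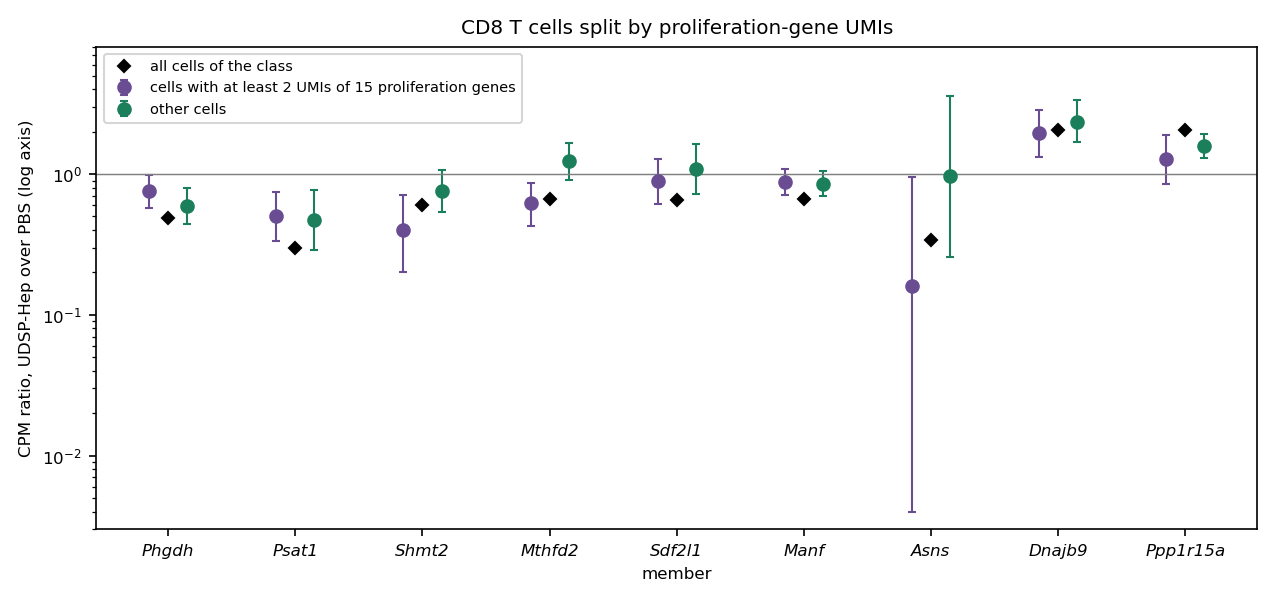
CPM ratio of UDSP-Hep over PBS (log axis) of the 9 members called in CD8 T cells, in the whole class (black diamonds), in cells with at least 2 UMIs of 15 proliferation genes (purple) and in other cells (green), with 95% counting intervals. Psat1 and Phgdh lie below 1 and Dnajb9 above 1 in both sets, and Mthfd2 lies on opposite sides of 1.

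In monocytes Ddit3 stood at 94.2 CPM in PBS and 54.7 CPM in UDSP-Hep (0.580, 0.532 to 0.633). The inducible Hsp70 genes Hspa1a and Hspa1b, which belong to the cytosolic heat-shock response and not to the ER programme, were also lower, at a sum of 2894.8 CPM in PBS and 222.9 CPM in UDSP-Hep monocytes. Cells with at least 0.1% of their UMIs on these 2 genes numbered 636 of 2511 and 48 of 1362. Ddit3 was at 185.6 and 84.6 CPM in these cells and at 66.4 and 53.7 CPM in the others, where its ratio was 0.808 (0.733 to 0.891), short of a call. In 6 of the 8 monocyte clusters with at least 20 cells in each library the Ddit3 interval held 1. Ddit3 is also uncertain as a count, because the annotation holds a second Ddit3 gene at the same place, listed at 0 UMIs, and reads shared by both may not have been counted. Chac1, which breaks down glutathione and is a Ddit3 and Atf4 target, was at 3.72 and 1.37 CPM (0.368, 0.205 to 0.624) on 86 and 17 UMIs, and at 3.78 and 1.42 CPM in the cells poor in Hsp70 transcripts. Trib3, a pseudokinase that binds Atf4, was tested in 3 classes and called in none.

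The amino-acid transporter gene Slc7a5 was called higher in 3 classes. It stood at 3.38 and 5.16 CPM in monocytes (1.53, 1.08 to 2.15), a call that held under 8 of 13 other settings and was lost under median-of-ratios scaling and with clusters weighed the same. It stood at 11.7 and 38.5 CPM in cDC2 (3.28, 1.92 to 5.71) and at 121.8 and 209.5 CPM in basophils (1.72, 1.16 to 2.53). Its partner Slc3a2 did not follow it in basophils, at 416.6 and 242.3 CPM (0.582, 0.428 to 0.780). Sesn2, a leucine sensor that restrains mTORC1, was higher in cDC2 at 47.0 and 72.9 CPM and in basophils at 17.7 and 49.3 CPM, the latter on 9 and 12 UMIs. The Sesn2 call held under 8 of 12 other settings in cDC2 and 8 of 13 in basophils. The phosphatase subunit Ppp1r15a, besides CD8 T cells, was higher in Treg at 107.1 and 246.2 CPM (2.30, 1.86 to 2.86) and in other CD4 T cells at 169.9 and 259.7 CPM (1.53, 1.21 to 1.94). The Ppp1r15a call in other CD4 T cells held under 8 of 13 other settings and was lost under median-of-ratios scaling and stricter gates, among others. Ppp1r15a is also an early response gene in many cells.

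The 14 members called in no class were Hsp90b1, Dnajc3, Creld2, Canx, the 5 ERAD genes, Ern1, Atf6, Atf4, Trib3 and Nupr1. Other genes of the same pathways were counted by the same rule. Of 22 other ER folding and secretory genes, 1 was called higher and 1 lower in macrophages, and likewise 1 and 1 in monocytes. Of all genes, 8.22% were called higher and 4.98% lower in macrophages, and 7.6% and 3.82% in monocytes. The lower gene of the 22 in both classes was Ero1l, the ER oxidase that recharges disulfide isomerases and a known hypoxia gene. It stood at 466.1 and 249.4 CPM in macrophages (0.535, 0.504 to 0.568) and 500.6 and 259.3 CPM in monocytes. Ero1l was called lower in 7 classes in all, Treg (0.658, 0.504 to 0.858) and other T cells (0.401, 0.303 to 0.528) among them, and higher in other CD4 T cells, at 92.5 and 419.2 CPM (4.53, 3.42 to 6.11). Pdia3, another disulfide isomerase, was higher in monocytes at 98.8 and 163.7 CPM, in Treg at 102.5 and 173.2 CPM and in other CD4 T cells at 95.9 and 144.5 CPM. Among other ERAD genes, Selenos was higher in Treg, Edem3 was higher in CD8 T cells and Erlec1 was lower in other T cells, and none was called in the other 7 classes.

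Of the 32 other integrated stress response genes, 26 were tested in CD8 T cells, where 4 were called higher and 7 lower, beside 12.8% and 10.2% of all genes. The first included Atf3 and Cebpb, and the second Shmt1 at 23.2 and 8.82 CPM and the aminoacyl-tRNA synthetase gene Aars at 58.6 and 31.7 CPM. In macrophages 4 of 27 were higher and 3 lower, beside 8.22% and 4.98% of all genes. Slc7a11, the cystine transporter, was higher at 31.1 and 86.7 CPM (2.79, 2.41 to 3.22), and Eif4ebp1, a translation repressor, was lower at 220.5 and 113.3 CPM (0.514, 0.470 to 0.561). In NK cells 2 of 27 were higher and 4 lower, beside 4.33% and 3.25% of all genes. Cebpb was higher there at 126.1 and 292.6 CPM (2.32, 2.03 to 2.66), and the proline synthesis gene Aldh18a1 was lower at 29.6 and 14.5 CPM. In other CD4 T cells Atf3 stood at 13.5 and 115.2 CPM (8.56, 4.21 to 20.3). Of 6 genes for eIF2alpha, its kinases and its phosphatases, Eif2s1, which encodes eIF2alpha, was lower in CD8 T cells at 89.5 and 50.3 CPM, Eif2ak2 was lower in cDC2 at 45.5 and 27.3 CPM, and Ppp1r15b was higher in other CD4 T cells at 52.1 and 113.3 CPM.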

How the data were processed

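Per the labels, leukocytes were stained for CD45, sorted and loaded for droplet sequencing. The deposited values are raw UMI counts per gene and barcode. The submitters' processing notes list Cell Ranger 7.0.0, Seurat and build mm10, and the authors' counts were used as they stand. The sources used here do not say whether several droplet runs were joined.

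Cells with at least 200 genes, 500 UMIs and under 10% mitochondrial UMIs were kept. Scrublet, run in Scanpy 1.11.5, marked 0.0138% and 0.0129% of cells by its own threshold, so the highest scores were removed instead, at 0.8% per 1000 cells (417 PBS and 481 UDSP-Hep cells). Classes needed 2 to 4 markers of a panel. Cells positive for several panels (474 and 853) or none (327 and 578) were left out, as were phagocytes and dendritic cells with no subset (289 and 153). Leiden clustering (resolution 1.5, 26 clusters) left out the members. Summed UMIs were scaled to CPM with exact Poisson intervals. Ratios have exact conditional binomial 95% intervals, computed with SciPy 1.17.1. They were tested on simulated Poisson counts, which hold no variation between cells or tumours, so that test checks the computation only. UMIs of one library are not independent animals, so intervals cover counting error only. With 1 library per group there is no p-value, and fewer cells of a kind cannot be told apart from less RNA per cell inside a class. Levels are not compared between genes. Genes of the other pathway lists were named only when called, at most 4 a list in a class. Not all called genes are named, and those named are not always the ones with the interval bound furthest from 1. The members and lists were chosen with earlier results of these data known. One gene of the other pathway lists is not reported here.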

Additional observations from a re-analysis of the deposited data

Results flagged for a closer look

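Mthfd2 differed between the libraries in opposite directions in different lymphocytes. Its log2 ratio of UDSP-Hep over PBS was 0.63 in Treg and 1.06 in other CD4 T cells, but -0.89 in NK cells and -0.60 in CD8 T cells, each with a 95% counting interval that excluded 0. It stood out because the groups of cells went opposite ways under the same contrast. The difference between classes was not tested, since each group is 1 library. Cells with at least 2 UMIs of proliferation genes were 42.5% and 13.3% of PBS and UDSP-Hep CD8 T cells and 25.0% and 21.0% of Treg. Within these cells the Mthfd2 ratio was 1.19 (0.628 to 2.39) in NK cells, 1.92 (1.26 to 2.96) in Treg and 0.620 in CD8 T cells. In the other cells it was 0.432 (0.295 to 0.636) in NK cells, 1.45 (0.814 to 2.68) in Treg, 1.23 (0.902 to 1.67) in CD8 T cells and 2.24 (1.24 to 4.35) in other CD4 T cells. The call in Treg was thus lost without the proliferating cells. The values above 1 in NK and CD8 T cells had intervals that held 1, so they do not show a change of direction. The NK value rests on 20 PBS and 53 UDSP-Hep cells, with 14 and 36 UMIs. Mthfd2 was called lower in NK clusters 9 and 11, at ratios of 0.623 and 0.438.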

How the results depend on the processing

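No paired analysis was possible because each group is 1 library, so the groups share only 1 replicate number. No replicate could be left out. Of the 43 calls, 6 held under all 13 other settings (Dnajb9, Phgdh and Psat1 in CD8 T cells, Phgdh in NK cells, Xbp1 and Ppp1r15a in Treg), and 18 held under all but thinning to 1000 UMIs per cell, which leaves fewer counts by construction. Thinning put the called members at 1 in macrophages, cDC2, basophils, NK cells and other CD4 T cells, 2 in monocytes, 5 in CD8 T cells, and 0 in nonclassical monocytes and other T cells. Counts here and below are of all members called under a setting, whether or not the main rule called them. Under thinning every main call in cDC2, basophils and other CD4 T cells was lost, so the member counted there is another one. In monocytes only the Ddit3 call was kept under thinning. With clusters weighed the same, a setting chosen after seeing the data, the counts were 1 in macrophages, 3 in monocytes, 5 in CD8 T cells and 2 in other T cells. With every cell weighed the same they were 1 in nonclassical monocytes, 5 in CD8 T cells and 0 in other T cells. With Leiden clusters as classes they were 0 in nonclassical monocytes and 5 in CD8 T cells, and cDC2 had no named cluster. Without cycling cells they were 1 in nonclassical monocytes, 1 in cDC2 and 5 in CD8 T cells. Stricter gates gave 2 in basophils and 6 in NK cells, and leaving out cells rich in Hsp70 transcripts gave 3 and 5. Median-of-ratios scaling, and likewise leaving out mitochondrial, ribosomal and heat-shock UMIs, gave 1 in nonclassical monocytes and 5 in NK cells, and a minimum of 1 UMI in each library gave 5 in NK cells. No count in Treg left 1.5 times its value of 5. Log2 ratios changed sign for Pdia4 in macrophages with clusters weighed the same (0.04), for Mthfd2 (0.29) and Sdf2l1 (0.12) in CD8 T cells without cycling cells, and under thinning for Slc7a5 in monocytes (-0.86), Manf (0.10) and Mthfd2 (0.34) in CD8 T cells, Hyou1 in Treg (-0.13) and Mthfd2 in other CD4 T cells (-0.22). Beyond the splits by cluster and by proliferation given above, the cause was not tested. The highest class was the same in both libraries for 27 of 34 members, 19 under thinning and 25 with Leiden clusters.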
